A study of Homo sapiens with 9 samples.

Results

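The kinetochore is the protein structure that forms on the centromere of each chromosome and holds the microtubules of the mitotic spindle, and the spindle checkpoint is the signalling system that delays anaphase while any kinetochore lacks attachment. The transcripts of 43 such genes were followed in OCI-Ly1, an established human cell line from a diffuse large B-cell lymphoma, after 48 h of exposure to JIB-04. This compound inhibits histone demethylases of the Jumonji family. The genes were taken from a list of names, chosen with earlier results of these data known. All 43 were found among the 25370 symbols of the deposited count table and among the 15089 genes with enough counts to be tested. The groups were vehicle (DMSO) and JIB-04 at 150 nM or 500 nM, each for 48 h in the same medium, with 3 libraries per group and 9 in all. All cells came from 1 line, and no label states that replicate libraries were grown as separate cultures, so each p-value rests on a spread between libraries that may be technical. RNA was extracted from whole cultures, so fewer cells in mitosis and less RNA per cell cannot be told apart.

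The proteins act in layers. The constitutive centromere-associated network, abbreviated CCAN, sits on centromeric chromatin through the cell cycle and forms the inner kinetochore. The outer kinetochore, made of the KNL1, MIS12, NDC80 and SKA complexes, is built onto it for mitosis and binds microtubules. The inner centromere holds the chromosomal passenger complex, which carries the kinase Aurora B and destabilises wrong attachments, and the shugoshins, which protect sister chromatid cohesion. A fibrous corona on unattached kinetochores carries the motor CENP-E, CENP-F and the RZZ complex. The checkpoint proteins BUB1, BUBR1, BUB3, MAD1, MAD2 and MPS1 act from unattached kinetochores on the anaphase-promoting complex. Many mitotic genes are transcribed late in the cell cycle, and their promoters often hold a cell cycle genes homology region, or CHR, together with CCAAT boxes. The 43 genes were sorted by these roles into 13 CCAN genes, 5 inner centromere genes, 13 outer kinetochore genes, 5 corona genes, 6 checkpoint genes and CENPJ, a centriole gene that shares only the name prefix.

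Libraries held 28476845 to 57198613 counts, and DMSO replicate 2 was the shallowest. The 43 genes together took 0.521% to 0.560% of the counts in DMSO, 0.528% to 0.573% at 150 nM and 0.483% to 0.495% at 500 nM. Every one of the 7 B-cell marker genes examined was detected, with a summed level of 1480 to 1530 CPM (counts scaled to a common library size) at 500 nM and 1700 to 1760 CPM in DMSO. The 4 T-cell markers in the table, CD3E, CD3D, CD3G and CD2, summed to 7.13 to 8.01 CPM at 500 nM and 18.4 to 21.0 CPM in DMSO. The 5 myeloid markers summed to 1.27 to 1.93 CPM at 500 nM and 2.36 to 2.86 CPM in DMSO, with MPO at 0 in every library. The 5 epithelial markers summed to 3.10 to 4.55 CPM at 500 nM and 5.24 to 5.98 CPM in DMSO, with CDH1 and KRT19 at 0. The 5 fibroblast markers summed to at most 0.464 CPM in any library. At 500 nM, 3 of the 7 B-cell markers fell (MS4A1, CD79B and CD22, by 24.3% to 27.9%) and PAX5 rose, 3 of 4 T-cell markers fell (CD3D, CD3G and CD2), and EPCAM, 1 of 2 epithelial markers tested, fell. By the test given below, 57.1% of B-cell, 75% of T-cell, 50% of epithelial and 0% of myeloid markers tested changed, beside 52.0% of all tested genes. The part of marker levels in the results that follow was not tested.

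At 500 nM the direction of change was not the same in all roles. All 5 inner centromere genes fell, as did 4 of 6 checkpoint genes and 3 of 5 corona genes, whereas 5 of 13 CCAN genes rose and 2 fell, and 8 of 13 outer kinetochore genes were not called. Calls were made with edgeR's quasi-likelihood test at a threshold of 0.05, after Benjamini-Hochberg adjustment over all 15089 genes. By that rule 17 of the 43 genes fell and 8 rose at 500 nM against DMSO, which is 58.1% called beside 52.0% of all tested genes, of which 25.6% fell and 26.3% rose. The share of the 43 genes called was thus near that of all genes. For 32 of the 43 genes the 500 nM libraries lay all above or all below the DMSO libraries, beside 59.2% of tested genes, with 21 lower and 11 higher beside 29.0% and 30.2%. The median log2 fold change was -0.68 for inner centromere genes, -0.43 for checkpoint genes, -0.37 for corona genes, -0.10 for outer kinetochore genes and 0.12 for CCAN genes, against 0.01 for all tested genes. No set-level test was made of these medians.

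**Figure D1:**
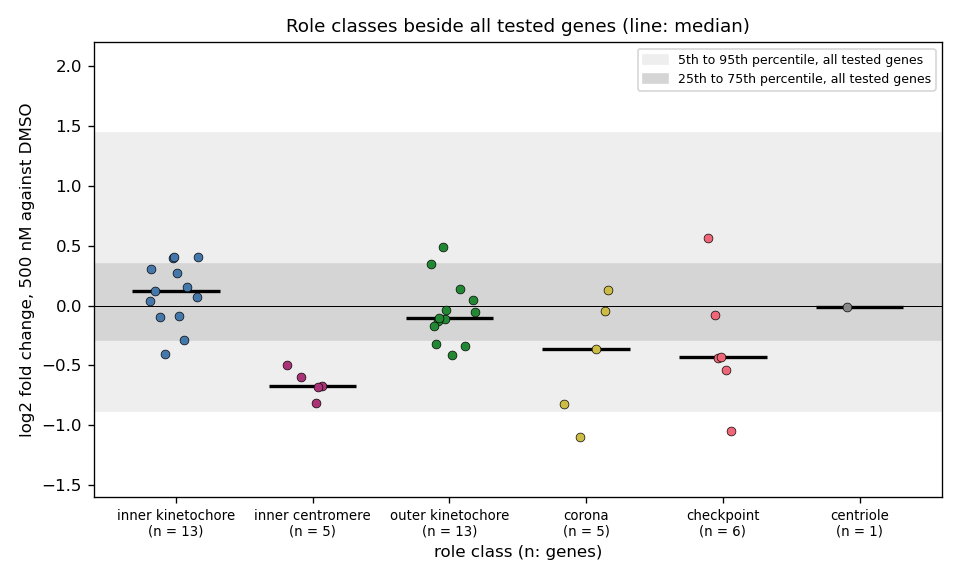
The log2 fold change at 500 nM JIB-04 against DMSO (vertical axis) for each gene (points) by role class (horizontal axis), with the class median as a line and the central ranges of all 15089 tested genes as grey bands. All 5 inner centromere genes lie below the darker band, whose lower edge is -0.29, while the CCAN genes spread across 0 with a median of 0.12.

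The scaling of the libraries bears on the smaller changes. When libraries were scaled by total counts alone, the median of all tested genes moved to 0.15, and 16 of the 43 genes fell and 15 rose. CCAN genes then had 1 fall and 9 rises, and the medians of the outer kinetochore genes and of all 43 genes turned positive, at 0.04 and 0.05. The 5 inner centromere falls, the 3 corona falls, the 4 checkpoint falls and the checkpoint rise stood at the same counts under that scaling. Levels below are CPM scaled to the effective library size, changes are log2 fold changes with their standard errors (SE), and adjusted p-values are those of edgeR.

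The promoters of the genes were set beside their changes. RefSeq promoter windows of 300 bases, from 250 before to 50 after the annotated start on build GRCh38.p14, were matched to 35 of the 43 genes. Those not matched were BIRC5, CASC5, CENPH, CENPL, CENPM, KNTC1, BUB3 and TTK. Windows were searched on both strands for the CHR letters TTTGAA or TTCGAA, for CCAAT, and for the E2F letters TTTCCCGC, TTTGGCGC or TTTCGCGC. The sequences printed here run from the 120 bases before to the 30 after the start for 5 genes that fell and hold CHR letters, then for CENPE, which fell without them, and for MAD1L1 and CENPU, which rose without them. Capital letters mark CHR letters and CCAAT on either strand, the reverse strand reading TTCAAA or ATTGG. CDCA8 (borealin) is at chr1:37692396-37692545 on the plus strand, INCENP at chr11:62123891-62124040 plus, SGOL1 (now SGO1) at chr3:20186177-20186326 minus, BUB1 at chr2:110678034-110678183 minus and NDC80 at chr18:2571437-2571586 plus. CENPE is at chr4:103198314-103198463 minus, MAD1L1 at chr7:2232916-2233065 minus and CENPU at chr4:184734067-184734216 minus.
CDCA8: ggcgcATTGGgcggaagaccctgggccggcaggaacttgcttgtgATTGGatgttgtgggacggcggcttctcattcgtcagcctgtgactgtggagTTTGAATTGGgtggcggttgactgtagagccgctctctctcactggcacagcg
INCENP: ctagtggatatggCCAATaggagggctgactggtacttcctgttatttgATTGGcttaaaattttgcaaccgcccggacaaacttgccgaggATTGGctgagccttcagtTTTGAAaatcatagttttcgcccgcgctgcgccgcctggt
SGOL1: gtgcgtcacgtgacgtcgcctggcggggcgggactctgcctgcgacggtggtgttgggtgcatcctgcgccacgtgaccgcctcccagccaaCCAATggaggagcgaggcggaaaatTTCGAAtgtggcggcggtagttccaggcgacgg
BUB1: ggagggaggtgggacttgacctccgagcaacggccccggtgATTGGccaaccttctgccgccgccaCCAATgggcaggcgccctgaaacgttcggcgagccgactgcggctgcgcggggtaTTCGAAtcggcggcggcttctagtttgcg
NDC80: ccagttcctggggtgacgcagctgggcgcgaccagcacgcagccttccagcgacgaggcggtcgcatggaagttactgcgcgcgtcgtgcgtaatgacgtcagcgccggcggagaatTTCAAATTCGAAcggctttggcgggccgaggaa
CENPE: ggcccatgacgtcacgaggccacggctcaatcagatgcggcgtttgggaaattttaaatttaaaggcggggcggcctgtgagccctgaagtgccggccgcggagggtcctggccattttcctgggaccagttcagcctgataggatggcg
MAD1L1: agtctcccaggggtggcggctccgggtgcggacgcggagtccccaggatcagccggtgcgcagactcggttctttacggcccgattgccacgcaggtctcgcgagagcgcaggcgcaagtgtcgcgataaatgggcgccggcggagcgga
CENPU: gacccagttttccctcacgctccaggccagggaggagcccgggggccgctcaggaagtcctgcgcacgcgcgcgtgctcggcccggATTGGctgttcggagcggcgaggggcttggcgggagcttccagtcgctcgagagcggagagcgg

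CDCA8, INCENP, SGOL1 and BUB1 each carry CCAAT upstream of CHR letters that lie near the start, and in CDCA8 the CHR letters and the nearest CCAAT share 1 base. NDC80 holds the CHR letters as 2 adjoining copies and no CCAAT. CHR letters were present in 18 of the 35 windows, which is 51.4%, beside 11.9% of the 11305 windows of tested genes and 16.6% of all 27305 RefSeq windows. CCAAT was present in 21 of 35, which is 60%, beside 36.8% of tested genes and 35.7% of all. Both were present in 12 of 35, which is 34.3%, beside 5% of tested genes. The E2F letters were found in 2 of 35, CENPU and MIS12, which is 5.71% beside 4.47% of tested genes.

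By promoter letters, the 18 genes with CHR letters included 11 that fell and 1 that rose at 500 nM, and their median was -0.35 on the log2 scale. The 17 genes without them included 3 that fell, CENPE, SGOL2 and CENPI, and 6 that rose, with a median of 0.05. The gene that rose with CHR letters was SKA1, where they begin at position 35 from the start. Among genes that fell, they begin at position 41 in CENPF and at position 2 in BUB1. The part of position was not tested. Among all tested genes, 32.1% of the 1348 with CHR letters fell, with a median of -0.06, against 25.6% of the 9957 without, with a median of 0.03. A match of these letters is a description of the sequence and was not tested as a binding site. Each window rests on a single annotated start, which may not be the start these cells use. Absence of the letters, as in CENPI, thus holds for that window only.

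The inner centromere genes fell without exception at 500 nM. CDCA8, the borealin subunit of the chromosomal passenger complex, had 80.8, 83.3 and 82.9 CPM in the 500 nM libraries, against 139.7, 129 and 128 CPM in the DMSO libraries. BIRC5 encodes survivin, the subunit that helps to place the complex on centromeric histone H3, and had 107, 113 and 110.1 CPM at 500 nM, against 181, 182 and 163 CPM in DMSO. INCENP encodes the scaffold that binds and activates Aurora B, and had 78.1, 88.5 and 81.8 CPM at 500 nM, against 129, 125 and 123 CPM in DMSO. In each of these genes every 500 nM library lay below every DMSO library. The log2 fold change was -0.68 ± 0.06 for CDCA8 (SE, adjusted p = 5.19e-11), -0.68 ± 0.06 for BIRC5 (adjusted p = 7.83e-11) and -0.60 ± 0.06 for INCENP (adjusted p = 2.65e-09). The 3 subunits thus fell by 34.1% to 37.6%. AURKB, which encodes the kinase they carry and is not among the 43 genes, had 37.4, 40.7 and 41.0 CPM at 500 nM and 75.5, 72.9 and 72.1 CPM in DMSO, a log2 fold change of -0.89 ± 0.07 (adjusted p = 8.44e-12).

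The shugoshins also fell. SGOL1 keeps cohesin on mitotic centromeres and had 20.9, 24.1 and 22.2 CPM at 500 nM, against 29.8, 30.6 and 34.5 CPM in DMSO, a log2 fold change of -0.50 ± 0.09 (adjusted p = 1.67e-05). It was the inner centromere gene with the smallest change, and its groups did not overlap. SGOL2 (now SGO2), the other shugoshin, had 55.5, 62.5 and 57.9 CPM at 500 nM, against 96.8, 101 and 111 CPM in DMSO, and its per-library values are given because it had the largest change of the class, -0.81 ± 0.09 (adjusted p = 1.84e-07). In GENCODE v29, 17.7% of the exonic bases of SGOL1 are shared with the antisense gene SGO1-AS1, and no source used here states whether counting used strand, so reads of that stretch cannot be assigned to a strand.

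Checkpoint genes moved in both directions. BUB1, the kinase that marks centromeric histone H2A and recruits BUBR1, had 120.3, 121 and 119 CPM at 500 nM, against 229.8, 256 and 261 CPM in DMSO. BUB1B encodes BUBR1, a part of the inhibitor of the anaphase-promoting complex, and had 233, 229 and 236 CPM at 500 nM, against 319.5, 346 and 346 CPM in DMSO. MAD2L1 encodes MAD2, the protein that captures CDC20, and had 93.5, 96.6 and 93.8 CPM at 500 nM, against 122, 135 and 128 CPM in DMSO. None of these groups overlapped, and BUB1 stood at 0.482 times its DMSO level. BUB1 fell by 51.8% (log2 fold change -1.05 ± 0.05, adjusted p = 1.92e-15), BUB1B by 31.0% (-0.54 ± 0.06, adjusted p = 5.15e-09) and MAD2L1 by 26.2% (-0.44 ± 0.06, adjusted p = 1.89e-06). TTK, which encodes the MPS1 kinase at the top of the pathway, fell by 25.6% (-0.43 ± 0.08, adjusted p = 4.27e-05).

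MAD1L1 went the other way. It encodes MAD1, which anchors MAD2 at unattached kinetochores, and had 105, 114 and 93.9 CPM at 500 nM, against 69.6, 75.8 and 66.2 CPM in DMSO. All 3 libraries at 500 nM were above all 3 DMSO libraries, and the log2 fold change was 0.56 ± 0.07 (adjusted p = 9.33e-08). BUB3, the WD-repeat partner of BUB1 and BUBR1, had 293, 294 and 302 CPM at 500 nM, against 307, 311 and 324 CPM in DMSO. Its groups did not overlap, yet the difference of -0.08 ± 0.05 did not pass the test (adjusted p = 0.160).

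Ratios of partners were taken within a library. Such ratios of counts need no scaling between libraries and are compared only between groups, since the genes differ in length; the pairs below were picked after their values were seen and were not tested. MAD1L1 counts divided by MAD2L1 counts gave 1.12, 1.18 and 1 at 500 nM, against 0.571, 0.560 and 0.519 in DMSO, so every ratio at 500 nM lay above every ratio in DMSO. BUB1 divided by BUB3 gave 0.410, 0.411 and 0.393 at 500 nM, against 0.749, 0.822 and 0.807 in DMSO. At 150 nM the first ratio was 0.636, 0.493 and 0.518, which spans the DMSO values, and the second was 0.718, 0.683 and 0.717, below all 3 DMSO values. A ratio shows that the pair changed unequally and not that either gene was constant.

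**Figure D2:**
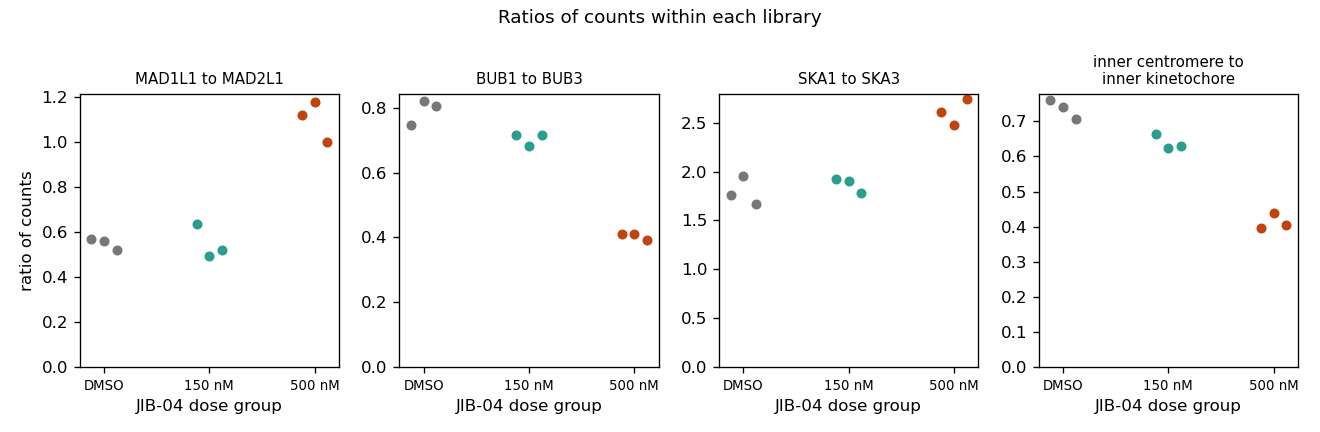
Ratio of raw counts of 2 genes, or of 2 summed classes, within each library (vertical axis, from 0) for the DMSO, 150 nM and 500 nM libraries (points). MAD1L1 to MAD2L1 stands at 1 to 1.18 in the 500 nM libraries, above the DMSO libraries at 0.519 to 0.571, while inner centromere to CCAN counts stand at 0.397 to 0.439 at 500 nM and 0.707 to 0.760 in DMSO.

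In the corona, the motor CENPE and its neighbour CENPF fell, as did 1 of 3 genes of the RZZ complex. CENPE encodes the plus-end kinesin that moves chromosomes to the spindle equator, and had 114, 118 and 122 CPM at 500 nM, against 231, 255 and 275 CPM in DMSO. CENPF, a large coiled-coil protein of the corona that also binds dynein regulators, had 475, 459 and 482 CPM at 500 nM, against 782, 841 and 879 CPM in DMSO. The groups of both genes did not overlap, with CENPE at -1.10 ± 0.08 (adjusted p = 1.45e-09) and CENPF at -0.82 ± 0.05 (adjusted p = 1.15e-13). CENPE and BUB1 were the 2 of the 43 genes that changed more than 2-fold, and the only ones outside the central range of all tested genes from the 5th percentile (-0.88) to the 95th (1.45).

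The RZZ complex recruits dynein and the MAD proteins to kinetochores. ZW10 had 31.8, 30.3 and 29.8 CPM at 500 nM, against 38.8, 37.4 and 42.2 CPM in DMSO, a log2 fold change of -0.37 ± 0.08 (adjusted p = 0.000212) with no overlap. KNTC1, which encodes ROD, had 428, 416 and 420.1 CPM at 500 nM, against 421, 430.5 and 456 CPM in DMSO, with overlapping groups and a difference of -0.05 ± 0.05 (adjusted p = 0.433). ZWILCH, the remaining subunit, averaged 109 ± 4.92 CPM at 500 nM and 100.1 ± 3.38 CPM in DMSO (SD, n = 3 each), a difference of 0.13 ± 0.06 that did not pass (adjusted p = 0.0764). Counts of CENPE divided by those of KNTC1, a pair also picked after their values were seen, were 0.266, 0.284 and 0.291 at 500 nM, against 0.550, 0.591 and 0.603 in DMSO.

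**Figure D3:**
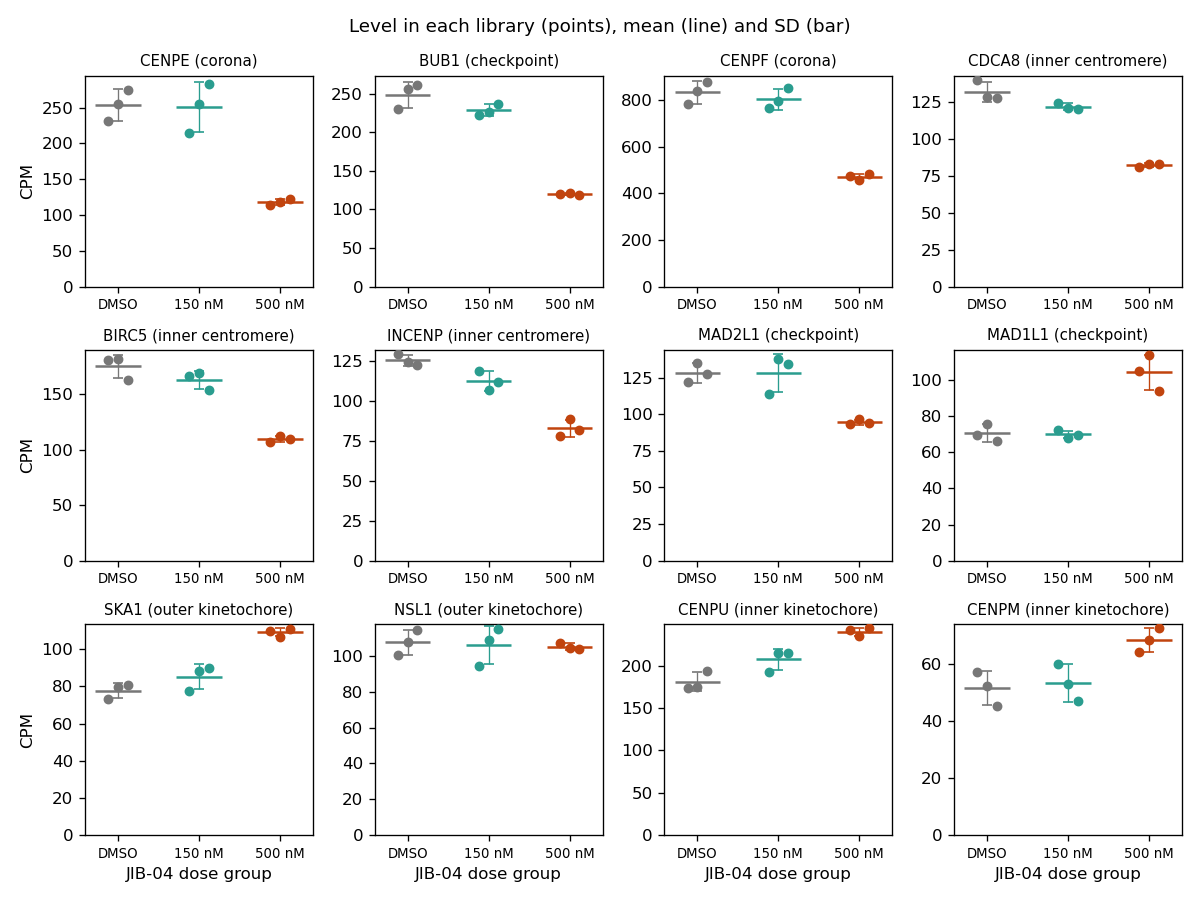
Level in CPM (vertical axis, from 0) of 12 genes in each library (points) of the DMSO, 150 nM and 500 nM groups, with the mean as a line and the SD of 3 libraries as a bar. CENPE, BUB1, CENPF, CDCA8, BIRC5, INCENP and MAD2L1 are lower in every 500 nM library than in any DMSO library, MAD1L1, SKA1, CENPU and CENPM are higher, and NSL1 overlaps.

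Within each outer kinetochore complex, some genes were called at 500 nM and others were not. CASC5 (now KNL1), the scaffold to which BUB1 and BUB3 dock, had 219.8, 219 and 220.4 CPM at 500 nM, against 254, 272 and 299 CPM in DMSO. NDC80, which encodes the microtubule-binding subunit HEC1, had 46.2, 44.0 and 45.3 CPM at 500 nM, against 57.5, 60.5 and 62.2 CPM in DMSO. NUF2, the partner of NDC80 in the outer part of the same complex, had 90.2, 85.6 and 86.5 CPM at 500 nM, against 94.8, 115 and 121 CPM in DMSO. All 3 fell without overlap, with log2 fold changes of -0.32 ± 0.06 for CASC5 (adjusted p = 4.86e-05), -0.41 ± 0.07 for NDC80 (adjusted p = 7.14e-06) and -0.34 ± 0.08 for NUF2 (adjusted p = 0.000613). SPC24 and SPC25, which tie the complex to the inner kinetochore, did not pass, at -0.10 ± 0.07 (adjusted p = 0.250) and -0.17 ± 0.08 (adjusted p = 0.0632, called in 3 of the 20 processing alternatives). The difference between the NDC80 and NUF2 pair and the SPC24 and SPC25 pair was not tested.

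SKA1, the microtubule-binding subunit of the SKA complex, rose. It had 110.0, 107 and 111 CPM at 500 nM, against 73.0, 79.5 and 80.6 CPM in DMSO, a log2 fold change of 0.49 ± 0.06 (adjusted p = 2.33e-07). Its partners SKA2 and SKA3 were not called, at 0.05 ± 0.08 (adjusted p = 0.655) and -0.05 ± 0.08 (adjusted p = 0.609). Counts of SKA1 divided by those of SKA3 were 2.61, 2.48 and 2.74 at 500 nM, against 1.76, 1.95 and 1.67 in DMSO, for this pair picked after its values were seen. The groups of this ratio did not overlap.

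The MIS12 complex links the CCAN to KNL1 and NDC80. NSL1, its subunit nearest to no change, had 108, 104 and 104 CPM at 500 nM, against 101, 108 and 115 CPM in DMSO, with overlapping groups and a difference of -0.03 ± 0.07 (adjusted p = 0.692). DSN1 and MIS12 did not pass either, at -0.13 ± 0.06 (adjusted p = 0.0765) and 0.14 ± 0.07 (adjusted p = 0.108). PMF1 rose, to 24.3 ± 2.14 CPM at 500 nM against 19.1 ± 2.21 CPM in DMSO (SD, n = 3 each; 0.34 ± 0.10, adjusted p = 0.00420). It shares 23.3% of its exonic bases with the readthrough gene PMF1-BGLAP, which has a row of its own in the table, so reads could be split between them. ZWINT, the partner of KNL1, had the highest level per length of all 43 genes and was at -0.11 ± 0.05 (adjusted p = 0.0542), just outside the threshold. It was called lower in 6 of the 20 alternatives, among them DESeq2 (adjusted p = 0.0403) and limma-voom (adjusted p = 0.0440).

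The inner kinetochore network differed from these classes in that more of its genes rose than fell. CENPU had 242, 235 and 244 CPM at 500 nM, against 174, 175 and 194 CPM in DMSO. CENPM had 64.1, 68.4 and 72.6 CPM at 500 nM, against 57.3, 52.5 and 45.4 CPM in DMSO. CENPQ had 25.2, 20.2 and 26.7 CPM at 500 nM, against 17.3, 18.5 and 19.2 CPM in DMSO. No library of these genes overlapped between the groups, although 500 nM replicate 2 came close to DMSO for CENPQ. The log2 fold changes were 0.41 ± 0.06 for CENPU (adjusted p = 5.30e-07), 0.40 ± 0.09 for CENPM (adjusted p = 0.000292) and 0.39 ± 0.10 for CENPQ (adjusted p = 0.00244).

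By subcomplex, 3 of the 4 members of CENP-OPQUR measured here rose, a module that binds microtubules and, through CENP-U, the kinase PLK1. They were CENPU, CENPQ and CENPP (0.31 ± 0.09, adjusted p = 0.00416), and CENPO was at -0.09 ± 0.07 (adjusted p = 0.281). CENPP shares 38.0% of its exonic bases with IPPK on the other strand and CENPO shares 27.0% with ADCY3, so their counts are uncertain without the strand setting, and CENPU shares 11.7% with PRIMPOL. Within CENP-HIKM, which supports loading of new CENP-A, CENPM rose and CENPK rose (0.27 ± 0.08, adjusted p = 0.00848), CENPH was at 0.16 ± 0.08 (adjusted p = 0.0816, called in 7 of the 20 alternatives) and CENPI fell. CENPI had 33.4, 29.5 and 34.1 CPM at 500 nM, against 42.4, 44.4 and 41.6 CPM in DMSO, a log2 fold change of -0.40 ± 0.08 (adjusted p = 7.11e-05) with no overlap. Counts of CENPU divided by those of CENPI, a pair picked after their values were seen, gave 7.24, 7.95 and 7.15 at 500 nM, against 4.10, 3.94 and 4.66 in DMSO.

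Of the remaining 5 CCAN genes, CENPW fell and the others were not called. CENPT, which with CENPW forms a histone-fold pair that recruits NDC80, had 58.4, 58.8 and 58.4 CPM at 500 nM, against 60.9, 53.1 and 56.6 CPM in DMSO, with overlap and a difference of 0.04 ± 0.07 (adjusted p = 0.638). CENPW fell, at -0.29 ± 0.07 (adjusted p = 0.000964), a call lost when libraries were scaled by total counts (-0.15, adjusted p = 0.0697) or when a trend on transcript length was removed (-0.11, adjusted p = 0.195). CENPC, which reads the CENP-A nucleosome, was at -0.09 ± 0.09 (adjusted p = 0.398). CENPL and CENPN, which form the CENP-LN subcomplex, were at 0.07 ± 0.07 (adjusted p = 0.458) and 0.12 ± 0.06 (adjusted p = 0.0857). CENPK, named above, was no longer called without DMSO replicate 1 (0.18, adjusted p = 0.0813). CENPJ (now CPAP), the centriole gene, had 77.6, 73.8 and 79.7 CPM at 500 nM, against 71.4, 81.4 and 80.8 CPM in DMSO, and did not pass (-0.01 ± 0.07, adjusted p = 0.871). Exonic bases shared with other genes also touch CENPN (12.8% with CMC2), CENPT (10.8% with TSNAXIP1), BUB1B (10.2% with the readthrough BUB1B-PAK6) and MIS12 (9.53% with DERL2).

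**Figure D4:**
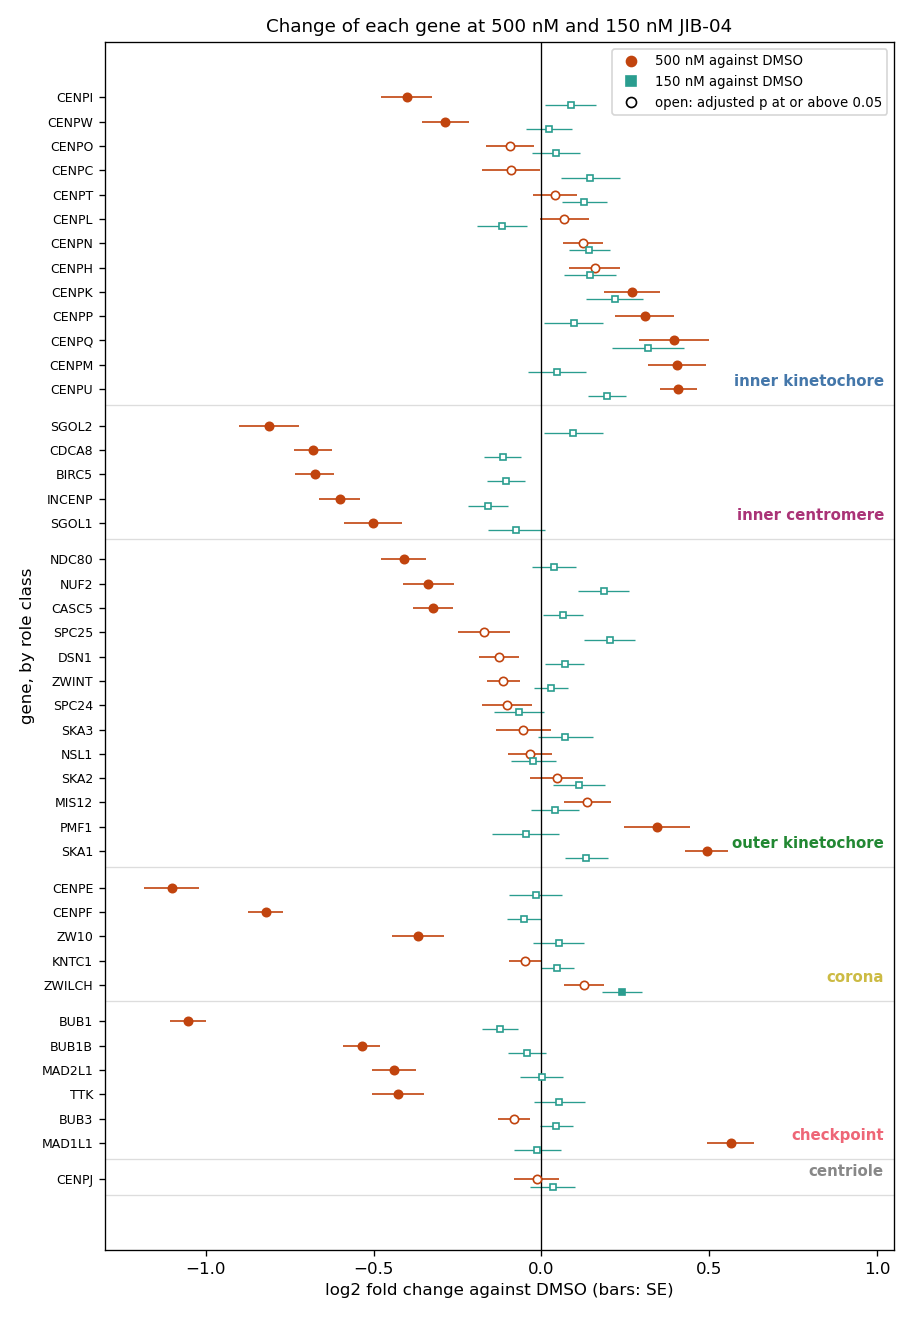
Log2 fold change against DMSO (horizontal axis, bars SE) of each of the 43 genes (rows, by role class) at 500 nM (circles) and 150 nM (squares), filled where the adjusted p was under 0.05 in edgeR's quasi-likelihood test. At 500 nM the values run from -1.10 for CENPE to 0.56 for MAD1L1, and at 150 nM ZWILCH alone is filled.

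Class sums compare the layers within a library and follow mostly their most abundant genes. The 5 inner centromere genes summed to 342, 371 and 355 CPM in the 500 nM libraries and to 577, 566 and 559 CPM in the DMSO libraries. The 13 CCAN genes summed to 862, 844 and 876 CPM at 500 nM and to 759, 763 and 790.5 CPM in DMSO. Both sums separated the 500 nM from the DMSO libraries, in opposite directions. At 150 nM the CCAN sums were 798, 865 and 860 CPM, also above all DMSO sums and overlapping those at 500 nM. The inner centromere sums at 150 nM were 529, 540 and 543 CPM, between those of the other groups. CENPU, the CCAN gene with the highest CPM, averaged 240.1 CPM at 500 nM and 180.9 CPM in DMSO. It thus weighs most in the CCAN sums and in the ratios to CCAN counts. By the test, 5 of the 13 CCAN genes rose and 2 fell at 500 nM against DMSO. Inner centromere counts divided by CCAN counts within a library were 0.397, 0.439 and 0.405 at 500 nM, against 0.760, 0.742 and 0.707 in DMSO. At 150 nM this ratio was 0.663, 0.624 and 0.631, also below all 3 DMSO values. Checkpoint counts divided by CCAN counts were 1.08, 1.11 and 1.07 at 500 nM, against 1.53, 1.63 and 1.59 in DMSO. At 150 nM they were 1.42, 1.4 and 1.47, again below all 3 DMSO values. These class sums and ratios were not tested, and the ratios were picked after their values were seen. Gene by gene at 150 nM, 0 of 13 CCAN, 0 of 5 inner centromere and 0 of 6 checkpoint genes were called, beside 1.27% of all tested genes. The 13 outer kinetochore genes summed to 1209, 1204 and 1209 CPM at 500 nM and to 1232, 1287 and 1368 CPM in DMSO, a narrow gap with no overlap. That gap depends on the scaling, since the median change of this class was 0.04 when libraries were scaled by total counts alone.

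Levels between genes were compared as CPM per kb of the longest GENCODE v29 protein-coding transcript, which may not be the transcript these cells use. In DMSO, ZWINT was highest at 144 CPM per kb, followed by BUB1B and CENPU at 90.5 each and CENPF at 80.9. CENPP was lowest at 2.495, after CENPC at 7.33 and CENPQ at 10.6. At 500 nM, ZWINT was at 133 CPM per kb, CENPU at 120.2 and BUB1B at 62.5, so CENPU and BUB1B, level with each other in DMSO, stood apart. The 4 subunits of the NDC80 complex, which assemble in equal numbers, had DMSO levels of 27.7 for NDC80, 56.1 for NUF2, 18.9 for SPC24 and 34.3 CPM per kb for SPC25. Across the 43 genes, the log2 fold change at 500 nM had a Spearman correlation of -0.42 with the mean CPM in DMSO and of -0.36 with transcript length. These points share the same libraries, so the correlations are descriptions only.

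**Figure D5:**
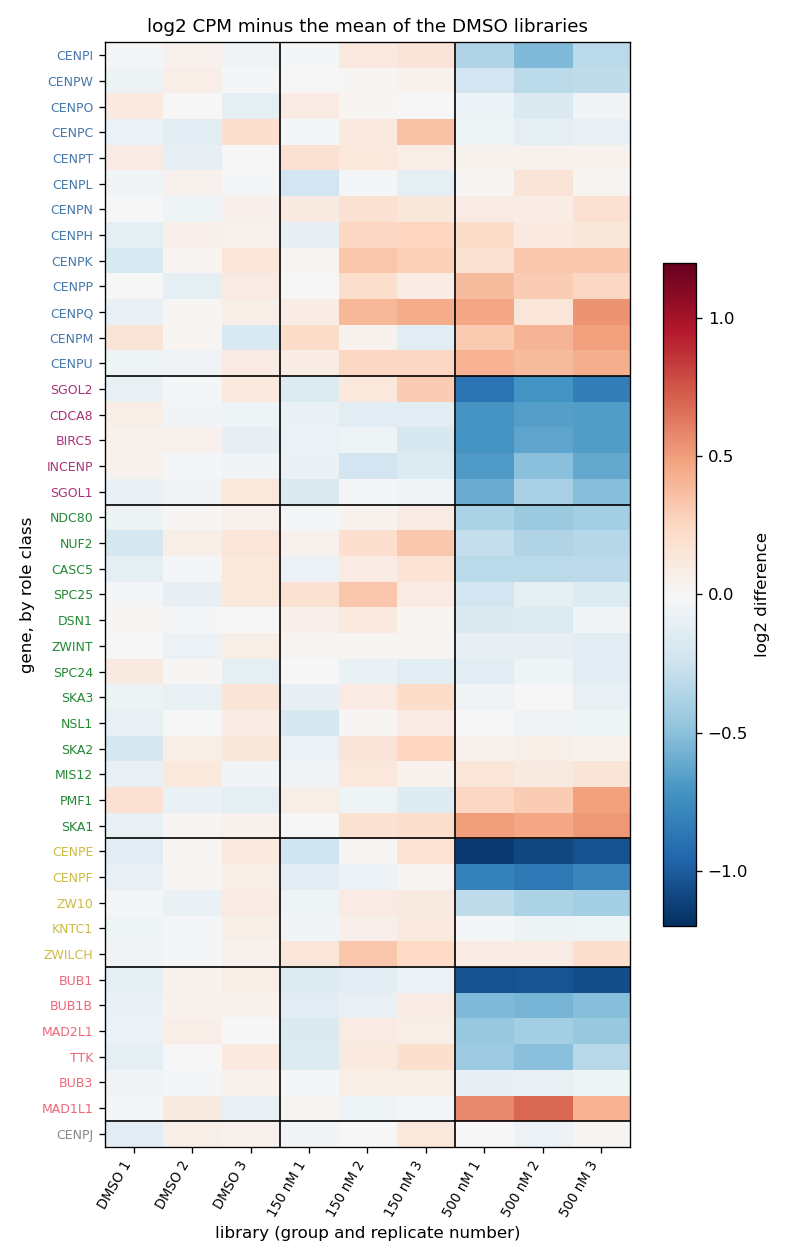
Difference of log2 CPM from the mean of the DMSO libraries (colour scale) for each of the 43 genes (rows, by role class) in each of the 9 libraries (columns). The 3 libraries at 500 nM share the same low values for CENPE, BUB1, CENPF and SGOL2 and the same high values for MAD1L1 and SKA1, while the 150 nM libraries show paler and less uniform differences.

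At 150 nM, 1 of the 43 genes was called, which is 2.33% beside 1.27% of all tested genes, of which 0.954% rose and 0.318% fell. It was ZWILCH, with 111, 126 and 118 CPM at 150 nM, against 98.0, 98.2 and 104 CPM in DMSO, a log2 fold change of 0.24 (adjusted p = 0.0397). ZWILCH shares 7.61% of its exonic bases with LCTL and 3.26% with the ribosomal protein gene RPL4, both on the other strand. The groups did not overlap, but the call did not hold in limma-voom (adjusted p = 0.0633) or in a fit of the 6 libraries compared (adjusted p = 0.117). It was also lost without DMSO replicate 1 or 2, 150 nM replicate 2 or 3, or any of the 3 libraries at 500 nM, with 0 of the 43 genes called in each of these fits. Without DMSO replicate 3 the fit called 2 genes. Without 150 nM replicate 1 it called 6, namely ZWILCH, CENPH, CENPK, CENPQ, CENPU and NUF2, all higher.

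None of the genes that fell most at 500 nM was called at 150 nM. CENPE had 214, 255 and 283 CPM at 150 nM, against 231, 255 and 275 CPM in DMSO (-0.02, adjusted p = 0.964). BUB1 had 222, 227 and 237 CPM at 150 nM, against 229.8, 256 and 261 CPM in DMSO (-0.12, adjusted p = 0.396). MAD1L1 had 72.1, 67.8 and 69.5 CPM at 150 nM, against 69.6, 75.8 and 66.2 CPM in DMSO (-0.01, adjusted p = 0.971). In each of these 3 genes the 150 nM libraries overlapped those in DMSO. Groups without overlap were seen for INCENP and CDCA8, both lower at 150 nM, and for CENPN, CENPQ, DSN1 and ZWILCH, all higher, beside 13.7% of tested genes, 7.32% lower and 6.41% higher. INCENP had 119, 107 and 112 CPM at 150 nM (-0.16, adjusted p = 0.298) and CDCA8 had 124, 121 and 120.2 CPM (-0.12, adjusted p = 0.477), against the DMSO values given above. In edgeR's test 0 of the 5 inner centromere genes were called at 150 nM, 2 had an unadjusted p under 0.05, and DESeq2 and limma-voom also called 0. The class median at 150 nM was -0.11 for inner centromere genes and 0.13 for CCAN genes, against -0.003 for all tested genes.

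The contrast between the doses set the 500 nM mean against the 150 nM mean, within the fit of all 9 libraries. The DMSO libraries therefore still entered the filter, the scaling and the estimate of spread behind its p-values. At 500 nM against 150 nM, 22 of the 43 genes fell and 7 rose, beside 22.8% and 23.7% of all tested genes, of which 46.5% were called. Libraries did not overlap for 31 genes, 24 lower and 7 higher, beside 55.0% of tested genes, 26.0% lower and 29.0% higher. All 5 inner centromere genes fell, with a median of -0.57, as did 5 of 6 checkpoint genes (median -0.46), 6 of 13 outer kinetochore genes (median -0.12) and 3 of 5 corona genes (median -0.42). CCAN genes had 4 rises and 3 falls (median 0.01). The rises dropped to 2 without a filter, with the length trend removed, and without 150 nM replicate 1 or 3 or any of the 3 libraries at 500 nM, where CENPP and CENPL were no longer called (adjusted p from 0.0528 to 0.189). The falls included CENPE (-1.08 ± 0.08, adjusted p = 2.72e-09), BUB1 (-0.93 ± 0.05, adjusted p = 5.17e-14) and SGOL2 (-0.91 ± 0.09, adjusted p = 5.61e-08). SPC25, DSN1, ZWINT, BUB3 and CENPC were called lower here and not against DMSO. The BUB3 call was lost in 7 of the 20 alternatives, namely total counts, the GC trend and without 150 nM replicate 2 or 3 or any of the 3 libraries at 500 nM. The CENPC call was lost in 4 (total counts, without 150 nM replicate 3, and without 500 nM replicate 2 or 3), that of ZWINT in 2 (total counts and without 500 nM replicate 3) and that of DSN1 in 1 (total counts). Against DMSO, calls were gained by ZWINT in 6 alternatives, SPC25 in 3, DSN1 in 2 and BUB3 in 1. SPC25 had 39.6, 42.9 and 41.3 CPM at 500 nM, against 52.4, 58.2 and 49.6 CPM at 150 nM, and its DMSO values of 45.5, 43.1 and 50.5 CPM overlapped those at 150 nM. The rises were MAD1L1 (0.58 ± 0.07, adjusted p = 8.93e-08), PMF1, SKA1, CENPM, CENPU, CENPP and CENPL.

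Genes that feed or act on the kinetochore were read from lists that hold none of the 43. These lists were also chosen with earlier results of these data known. Of 9 genes of centromeric chromatin and the rest of the CCAN, 4 fell and 0 rose at 500 nM, which is 44.4% called beside 52.0% of all tested genes. CENPA, the centromeric histone H3 variant, had 31.6, 29.0 and 30.4 CPM at 500 nM, against 46.2, 58.0 and 46.7 CPM in DMSO (-0.72 ± 0.08, adjusted p = 2.51e-08). HJURP, its chaperone, fell by 25.1% (-0.42 ± 0.06, adjusted p = 8.56e-07). At unadjusted p under 0.05 the number that rose in this list was also 0.

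Of 20 regulators of the kinetochore and checkpoint, 13 fell and 2 rose, which is 75% called beside 52.0% of all tested genes. PLK1, the Polo kinase, had 34.7, 38.7 and 37.7 CPM at 500 nM, against 103, 114 and 102 CPM in DMSO (-1.52 ± 0.07, adjusted p = 5.54e-17). CDC20, the activator of the anaphase-promoting complex that the checkpoint holds back, had 74.2, 80.6 and 84.0 CPM at 500 nM, against 198, 180.2 and 180.4 CPM in DMSO (-1.23 ± 0.06, adjusted p = 5.34e-16). CCNB1, cyclin B1, fell to 126 ± 3.93 CPM at 500 nM against 317 ± 10.3 CPM in DMSO (SD, n = 3 each; adjusted p = 1.39e-18). These falls were larger than that of any of the 43 genes, and in this list CLIP1, a microtubule plus-end protein, rose (0.83 ± 0.07, adjusted p = 7.71e-11). PLK1 was the single gene of these lists called at 150 nM, where it had 92.9, 84.7 and 85.5 CPM (-0.28, adjusted p = 0.0240).

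In the downstream and neighbouring lists the share of genes called was below the 52.0% of all tested genes. Of 18 genes of the anaphase-promoting complex and its partners, 6 fell and 1 rose (38.9% called), with the ubiquitin-conjugating enzyme UBE2C at -0.58 ± 0.06 (adjusted p = 1.09e-09). Of 15 genes of cohesin and separase, 4 fell and 1 rose (33.3% called), with PTTG1, the separase inhibitor securin, at -0.78 ± 0.05 (adjusted p = 7.69e-13). Of 7 genes of centriole duplication, 1 fell (PLK4) and 1 rose (CEP152), which is 28.6% called. Of 7 genes of the replicative helicase and its clamp, 3 fell and 0 rose (42.9% called, and 0 rose also at an unadjusted p under 0.05), led by MCM7 at -0.18 ± 0.05 (adjusted p = 0.00178), and the list median was -0.06.

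Of 21 regulators of mitotic gene transcription, 7 fell and 5 rose, which is 57.1% called and near the 52.0% of all tested genes. FOXM1, an activator of late cell cycle genes, had 85.1, 84.2 and 89.1 CPM at 500 nM, against 91.5, 90.8 and 86.5 CPM in DMSO (-0.06 ± 0.06, adjusted p = 0.444). MYBL2, which encodes the B-MYB subunit that acts at CHR promoters, had 532, 557 and 520.2 CPM at 500 nM, against 565, 509 and 507 CPM in DMSO (0.03 ± 0.05, adjusted p = 0.702). Both overlapped between the groups, and both were added after their values were seen. E2F5, a repressive E2F, fell (-0.64 ± 0.06, adjusted p = 3.73e-10), and E2F7, another repressor, rose (0.47 ± 0.07, adjusted p = 1.25e-06). These are transcript levels, and the activity of the proteins was not measured.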

How the data were processed

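Raw counts per gene symbol, 1 column per library for 9 libraries, were deposited by the authors and used as they stand. The labels' protocols state ribosomal RNA depletion of total RNA. Per the submitters' processing notes, the tools were featureCounts 1.4.6, Subread, Bowtie2 2.2.6 and TopHat2 2.0.14 and the builds hg19 and mm10, with no role for either. Annotation and strand setting: not given in the sources used here.

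Groups and replicate numbers came from sample titles. Counts were fitted across all 9 libraries with edgeR 4.0.16 in R 4.3.3 (filterByExpr with minimum count 10 and minimum total 15, TMM, robust quasi-likelihood), adjusting over 15089 genes and calling at 0.05. SE is the unshrunk log2 change over the square root of F. Fits were tested on simulated counts. Depth was 28476845 to 57198613 counts, and replicate libraries differed beyond sampling noise (chi-square per degree of freedom 6.34 to 15.2). Reads carry no molecular identifiers. The 43 genes, the other lists and their roles were chosen with earlier results of these data known.

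Per role class, values in every library are given for the 3 smallest adjusted p-values at 500 nM in the main direction, 1 call in the other direction, the gene nearest 0, genes called at 150 nM and CENPJ; other lists give up to 3 genes and 1 in the other direction. AURKB, FOXM1, MYBL2 and the per-library values of SGOL2 and SPC25 were added after their values were seen. Gene lengths and exon overlaps came from GENCODE v29, promoters and current symbols from RefSeq (GRCh38.p14), a build other than those of the notes, with 4 of the 43 symbols matched by their current name. Alternatives were DESeq2 1.42.0, limma-voom (limma 3.58.1), other scalings and filters, fewer libraries and a replicate block; removal of a GC or length trend was chosen after seeing the data.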

Additional observations from a re-analysis of the deposited data

How the results depend on the processing

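At 500 nM against DMSO, 24 to 31 of the 43 genes were called in all 20 alternatives, beside 25, and no called gene changed sign. Leaving out each library gave 24 to 29. Beside the gains given above, ZWILCH was called in 5 alternatives, MIS12 in 3 and CENPN in 2. Against 150 nM the range was 24 to 32, beside 29, and 24 to 30 when leaving out a library. All 5 inner centromere genes fell in both contrasts in every alternative, and their median at 500 nM against DMSO ran from -0.71 to -0.54. The CCAN median ran from 0.09 to 0.26 and the outer kinetochore median from -0.12 to 0.04, which includes positive values. At 150 nM against DMSO the single call became 2 with total counts, 3 without a filter, 2 in DESeq2, 0 in limma-voom, 0 in the fit of 6 libraries and 3 with the GC trend removed, and ran from 0 to 6 when leaving out a library; the cause was not tested. With the GC trend removed, BUB1 was called lower at 150 nM (-0.14, adjusted p = 0.0352). A replicate block gave 28 genes called at 500 nM and 2 at 150 nM against DMSO, and 29 between the doses. The deviations of same-numbered libraries correlated at -0.05 to 0.10, and those of differently numbered libraries of 2 groups at -0.08 to 0.04. Such correlations cannot decide whether same-numbered libraries shared a culture or batch. The lowest count of any of the 43 genes in a library was 489, for PMF1.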
